A study of Mus musculus with 16 samples.

Results

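The comparison concerns genomic DNA of 15 of the 16 cultured mouse tumour lines of the series, set by the strain of origin of each line across the 19 autosomes. The 3 Balb/C lines were CT26 from colon, 4T1 from breast and Renca from kidney. The 12 arrays labelled C57BI6 fell into 8 families: MC38 (colorectal), LL2 (lung), B16 melanoma as the mean of 4 arrays (B16F0 ECAC, B16F0 ATCC, B16F10 NCI and B16F10 ATCC), Hepa1-6 (liver), PAN02 (pancreas), TRAMPC prostate as the mean of TRAMPC1 and TRAMPC2, EL4 (blood) and ID8 (ovary). The mast cell line P815, the only DBA/2 line, stayed outside the fit and was read against both groups. All lines were sampled once in culture, without treatment in the labels, so the replicates of a strain are different tumours, each with its own acquired gains and losses. Every array set the DNA of the line (Cy5) against 1 commercial mouse genomic DNA (Cy3), whose strain the labels do not give, and a value is the log2 ratio of line over reference centred on the autosomal median of the array.

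Inbred mouse strains differ by single bases and also by segments that are deleted, duplicated or diverged. Such segments are known to gather in clustered gene families, among them olfactory and vomeronasal receptors, natural killer cell receptors, defensins, immunoglobulin segments and the H2 histocompatibility complex. Array comparative genomic hybridisation reads them as a ratio, and a lower copy number and a changed sequence under the 60-base probe cannot be told apart in it. No table used here links the probes to genes, so loci are named here by position on the mouse build mm8, without gene content.

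Balb/C lines differed from C57BI6 families at 5153 of 220255 tested autosomal probes, 2.34% of them (limma, Benjamini-Hochberg adjusted p under 0.05). Of these, 4359 probes were lower in Balb/C, 1.98% of those tested, and 794 were higher, 0.36%. Lower probes therefore made up 84.6% of the calls. This share was 69.6% under another background correction (normexp), which left 1291 calls. All probe positions come from a single genome build, mm8, and the part of the probe design in this share was not tested. The median difference of the lower probes was -1.05 in log2, with quartiles of -1.58 and -0.82, and 2359 of them (54.1%) fell by at least 1 on that scale. The median difference of the higher probes was 0.90, and 276 of them (34.8%) reached 1. Differences of at least 2 were found at 769 lower and 39 higher probes. Over all tested probes the median difference was 0.0042 and the median size 0.14.

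The channel of the lines carried the difference. Fitted on the Cy5 signal alone, 4253 probes passed (1.93%), of which 4048 (95.2%) were also called by the ratio. The Cy3 signal of the common reference gave 0 calls with the same limma test, with 3445 probes (1.56%) at an unadjusted p under 0.05 and a lowest adjusted p of 0.998. At the probes called lower, the median contrast was -1.01 in the line channel and 0.030 in the reference channel. At the probes called higher, it was 0.91 and -0.0083. At 319 of the lower probes (7.32%), all 3 Balb/C lines were too dim to count as well above background, so those differences are bounds. At 0 of the higher probes were all C57BI6 arrays that dim.

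All 3 Balb/C arrays fell into 1 of 2 scan batches that the files show, together with Hepa1-6, ID8 and B16F10 NCI. With the scan batch as a block, 3131 probes were called, and 3091 of them were calls of the fit without it. Within that batch alone, 3180 were called, of which 3001 were shared. Hepa1-6 and PAN02 are both labelled C57BI6 and lay in different batches. Their median difference at strain loci of at least 2 called probes was -0.11, and the median size of their difference was 0.15 against 1.15 between the strains. Both belong to the group whose fit chose these loci, and a small spread within that group favours a call, so this is a description only.

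Called probes lay on every autosome, at uneven density. The median autosome had 2.33% of its probes called. Chromosome 17 had the highest share, 346 of 8894 probes (3.89%), followed by chromosome 19 with 3.71% and chromosome 4 with 3.64%. Chromosome 15 had the lowest share, 102 of 9147 probes (1.12%), with chromosome 16 at 100 of 8917 (1.12%). Direction varied as well. Chromosome 17 had 111 probes higher in Balb/C, so that 67.9% of its calls were lower, and chromosome 1 had 68.7% lower. Of the 111 on chromosome 17, 61 lay in 1 locus, from 30176354 to 30650272, so that share does not describe the whole chromosome. On chromosome 19, 224 of 233 calls (96.1%) were lower. The median difference at uncalled probes was -0.23 on chromosome 19, 0.15 on chromosome 1 and -0.0026 on chromosome 17, and its part in these shares was not tested.

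**Figure D1:**
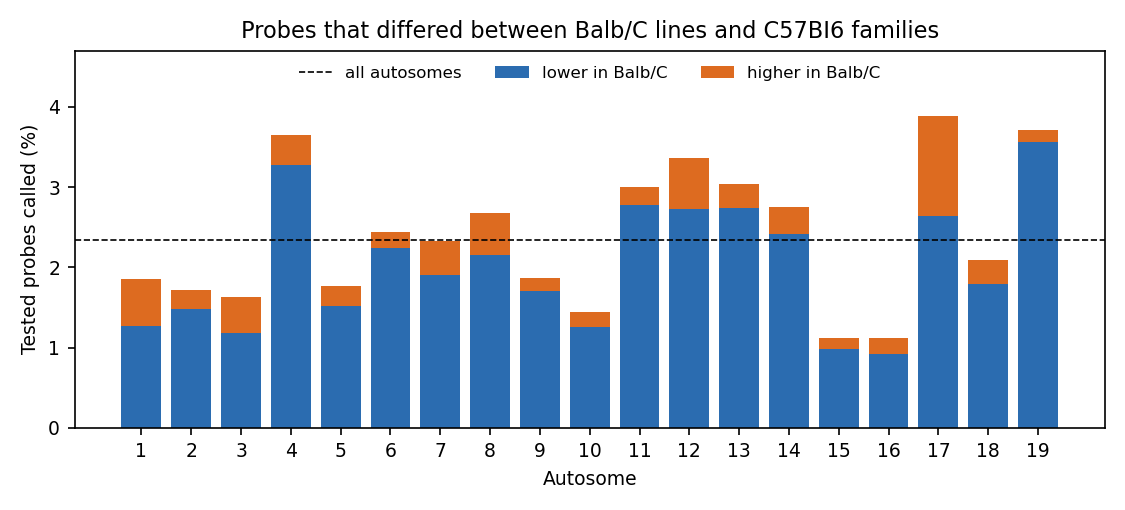
Percent of tested probes called on each autosome (bars), split into probes lower (blue) and higher (orange) in the 3 Balb/C lines than in the 8 C57BI6 families; the dashed line marks 2.34% over all autosomes. Chromosomes 17, 19 and 4 stand highest and 15 and 16 lowest, and the orange part is largest on chromosome 17, where 61 of the higher probes lie in 1 locus.

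At a scale of 1 Mb the calls were clustered. Of 2408 bins, 971 (40.3%) held no called probe, and 972 held 1 to 3. The 98 bins with 10 or more held 1474 of the called probes (28.6%), and 253 bins (10.5%) were enough to hold 50% of them. The next tested neighbour of a called probe was called in the same direction in 15.4% of cases (795 probes), against the 2.34% called overall. That share was 14.3% for lower and 21.4% for higher probes. A neighbour called in the other direction followed 49 probes. The longest stretches with no call ran from 23488699 to 41384004 on chromosome 3 (17.9 Mb, 1464 tested probes), from 84572014 to 101366724 on chromosome 12 (16.8 Mb, 1629 probes) and from 136940871 to 152124672 on chromosome 1 (15.2 Mb, 935 probes).

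By number of calls, the fullest bin was that from 30 to 31 Mb on chromosome 17, where 63 of 137 tested probes were called and 61 of these were higher in Balb/C. The bins from 114 to 115 and from 115 to 116 Mb on chromosome 12 held 43 of 115 and 41 of 81 probes, in mixed direction: 24 lower and 19 higher in the former, 26 lower and 15 higher in the latter. On chromosome 4, the bin from 111 to 112 Mb had 41 of 91 probes called, all lower. On chromosome 11, that from 58 to 59 Mb had 28 of 162 probes called, all lower. Both directions occurred together in 38 of the 98 bins with 10 or more calls.

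Called probes of 1 direction at most 100 kb apart were joined into 2950 loci, 2399 lower and 551 higher in Balb/C. Single probes made up 2089 of them, pairs 434, loci of 3 to 9 probes 394 and loci of 10 or more 33. The 861 loci of at least 2 probes held 59.5% of all called probes. Their median length from first to last called probe was 62.1 kb, and the longest spanned 1444 kb. Of these, 789 (91.6%) were lower, and of the single probes 77.1%. Of the 72 higher loci of at least 2 probes, 43 lay within 1 Mb of a lower one. Each value or difference given for a locus is the mean over its called probes only. In 419 of the 427 loci of at least 3 probes, the values of the 3 Balb/C lines did not overlap with those of the 8 families. The call itself, made at 2.34% of probes, selects for separated groups, so this count is no further support for a strain difference. The share of all tested probes whose groups do not overlap is not given here.

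Most of the loci were local. When each array was centred on a running median along the genome, which removes long gains and losses of a line, 848 of the 861 loci (98.5%) kept at least 50% of their difference, with a median of 92.0% kept. Of the 13 that did not, 11 lay on chromosome 4. From 90728555 to 103247272 on that chromosome, the uncalled probes too were lower in Balb/C, by a median difference of -0.36 over 1111 probes, and 8 of the 13 loci there lost more than 50% of their difference. Those loci lie in a long stretch of lower signal in the Balb/C lines.

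**Figure D2:**
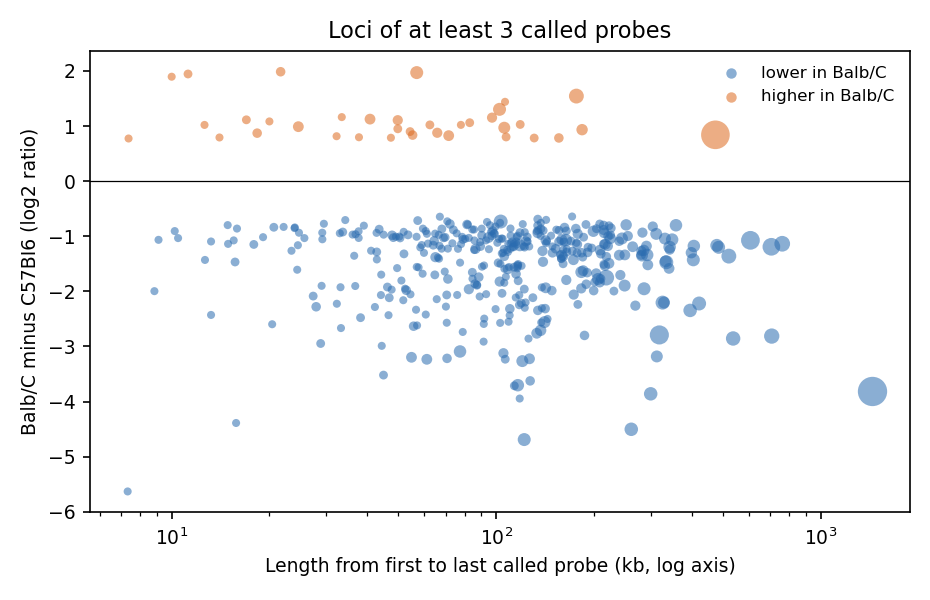
Length (kb, log axis) against mean difference (log2, Balb/C minus C57BI6) of the 427 loci of at least 3 called probes; point area grows with the number of called probes. The 391 lower loci (blue) reach further from 0 than the 36 higher ones (orange), and the 2 large points are the loci of 64 lower and 61 higher probes.

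The longest locus, which also had the most called probes, lay on chromosome 4 from 111482045 to 112926464, with 64 of its 92 tested probes lower. CT26 stood at -0.67, 4T1 at -0.63 and Renca at -0.72. The C57BI6 families ran from 2.16 in LL2 through a median of 3.26 to 3.94 in MC38. The 3 Balb/C lines lay close together (SD 0.045, n = 3) and below all 8 families (SD 0.59, n = 8). With dim signals set to the lowest signal above background, the families were at least 6.90-fold higher (adjusted p of the called probes 4.46e-14 to 0.047, limma). Both levels are imprecise here, since 39 probes were not well above background in Balb/C and 51 were dim in the reference. Without the probes dim in the reference, 13 called probes and a difference of -2.16 remained. Under normexp 2 were called and the difference was -0.77.

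The locus with the second most called probes went the other way. On chromosome 17 from 30176354 to 30650272, 61 of 66 tested probes were higher in Balb/C. CT26 stood at 0.59, 4T1 at 0.55 and Renca at 0.54. The families ran from -0.41 in TRAMPC through a median of -0.34 to 0.099 in B16, and the groups did not overlap. The mean difference of 0.84 is 1.79-fold (adjusted p 0.00024 to 0.046). No probe was dim in either channel. With the scan batch as a block, 17 of the 61 probes were called and the difference was 0.73. Within the batch of the Balb/C lines, 10 were called. After the running median 25 were called and the difference was 0.36, but most of that window lies inside the locus.

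Other long or dense loci were lower in Balb/C. A pair of stretches of chromosome 6 were alike. From 129924488 to 130242877, with 26 called probes, CT26 stood at -2.16, 4T1 at -2.33 and Renca at -2.16, against 0.24 in MC38, a median of 0.57 and 1.12 in B16, at least 5.64-fold (adjusted p 1.45e-12 to 0.0060). From 131285344 to 131991912, with 16 called of 51 tested probes, the lines stood at -2.51, -2.76 and -2.55, and the families ran from -0.13 in MC38 through 0.14 to 0.73 in B16, at least 4.99-fold (adjusted p 4.23e-14 to 0.018). In both, B16 was the highest family and MC38 the lowest. Under normexp their differences shrank to -1.075 and -0.90. Smaller differences spread over longer intervals were found on chromosome 6 from 146395590 to 147156829 (17 of 107 probes, 2.20-fold), on chromosome 19 from 23940195 to 24645077 (22 of 80 probes, 2.28-fold) and on chromosome 11 from 58245727 to 58853275 (25 of 116 probes, 2.10-fold). In these, called probes were scattered among uncalled ones, and the folds are those of the called probes only, not of the whole interval. On chromosome 11, 13 of the 25 probes were called without Renca, 16 without CT26 and 0 under normexp, and at the chromosome 6 interval 1 of 17 was called under normexp.

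The largest mean difference of a locus of at least 3 probes was on chromosome 9 from 41311957 to 41319282, where 3 of 3 probes were lower. CT26 stood at -5.03, 4T1 at -5.53 and Renca at -5.80, whereas the families ran from -0.080 in ID8 through 0.16 to 0.52 in LL2. The Balb/C signal was dim at all 3 probes, which makes the difference at least 10.4-fold (adjusted p 3.61e-15 to 7.18e-14). Under normexp 1 of the 3 was called, at a mean difference of -0.89. On chromosome 11 from 70987724 to 71109796, all 11 tested probes were lower. The lines stood at -3.60, -3.70 and -3.68, and the families spread little, from 0.94 in Hepa1-6 through 1.02 to 1.18 in LL2, at least 14.0-fold (adjusted p 1.84e-14 to 3.21e-09). Under normexp the difference there was -1.25, with 9 probes called. On chromosome 4 from 121473470 to 121734366, all 12 probes were lower, at -1.24, -1.46 and -1.53 against 2.93 in LL2, a median of 3.08 and 3.30 in MC38, at least 11.6-fold (adjusted p 2.55e-14 to 3.13e-07). The reference was dim at 7 of those probes, and the 5 others alone gave a difference of -3.41. Under normexp the difference at the 12-probe locus was -1.27. The remaining large differences were at least 8.34-fold over 3 probes on chromosome 8 from 32635591 to 32651400, where the reference was dim at all 3 and 0 were called under normexp, and at least 6.67-fold over 3 of 12 probes on chromosome 18 from 74442918 to 74561147, where 1 was called under normexp.

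Among loci higher in Balb/C the largest mean differences were under 2 in log2. On chromosome 7 from 37887916 to 37909600, all 5 probes were higher: CT26 stood at 0.23, 4T1 at -0.28 and Renca at -0.41, and the families ran from -2.58 in TRAMPC through -2.10 to -1.73 in EL4, a 3.96-fold difference (adjusted p 2.76e-09 to 4.87e-05), with 2 of the 5 called under normexp. On chromosome 1 from 173348489 to 173405431, all 11 probes were higher, with the lines at 0.0036, 0.070 and 0.15 and the families from -2.16 in TRAMPC through -1.88 to -1.57 in LL2, 3.92-fold (adjusted p 4.61e-11 to 0.026). On both, the Balb/C lines lay near the reference and the C57BI6 families below it. On chromosome 8 from 19922056 to 19933296, 4 probes differed 3.85-fold. On chromosome 4 from 11121120 to 11131130, 3 probes differed 3.72-fold, but 4T1 stood at 2.80 while CT26 and Renca stood at 0.97 and 0.94. Without 4T1 the difference at this locus was 1.28 in place of 1.90. On chromosome 12 from 115955976 to 116132724, 15 of 19 probes differed 2.92-fold, with the lines at 1.01, 1.38 and 1.22 and the families from -0.70 in MC38 through -0.44 to 0.12 in PAN02 (adjusted p 6.05e-08 to 0.035).

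**Figure D3:**
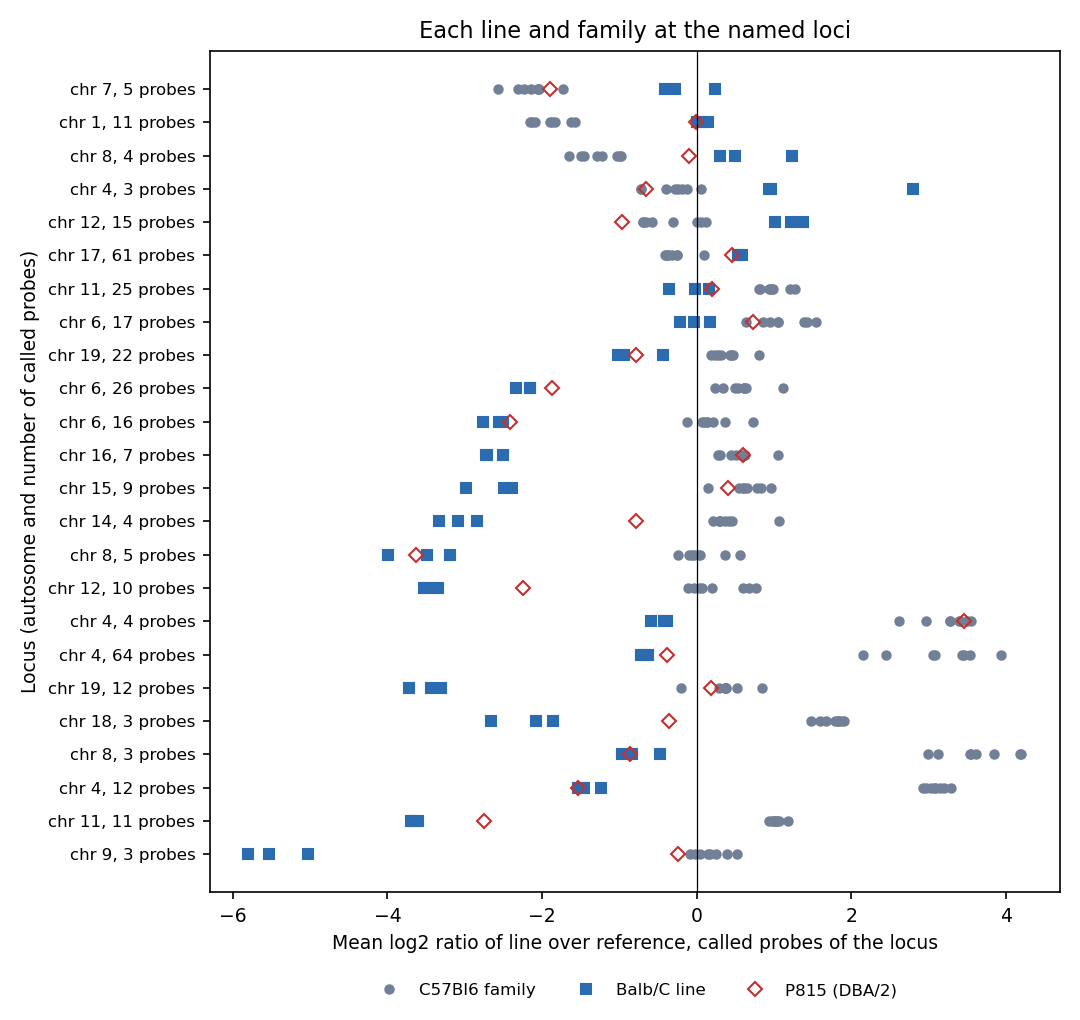
Mean log2 ratio of line over reference at the 24 named loci, each named by autosome and number of called probes: Balb/C lines (blue squares), C57BI6 families (grey circles) and P815 (open red diamonds), ordered by difference. The 2 groups overlap at none of the 24, which were chosen from called loci. P815 falls now on 1 group, now on the other, and at a few loci between them, and part of the loci were chosen by that side.

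Both directions alternated in the distal part of chromosome 12. From 114 to 117 Mb, 111 of 305 tested probes (36.4%) were called, 61 lower and 50 higher, in 18 loci of at least 2 probes of which 10 were lower and 8 higher. One of the lower loci, from 115443333 to 115560002 with 10 probes, had the Balb/C lines at -3.53, -3.41 and -3.34 and the families from -0.12 in MC38 through 0.13 to 0.77 in Hepa1-6, at least 8.17-fold (adjusted p 4.94e-12 to 9.03e-06). Under normexp its difference was -1.10. P815 was with Balb/C at 9 of the 10 lower loci there and between the groups at the other. Of the 8 higher loci it was with Balb/C at 2, with C57BI6 at 5 and between at 1. At the higher locus from 115955976, P815 stood at -0.96, below the lowest family, MC38 at -0.70. Where the C57BI6 mean is 0 and the Balb/C mean 1, its place there was -0.40, and 0.18 after local centring.

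The position of P815 was set on a scale where the C57BI6 mean is 0 and the Balb/C mean is 1, and at 0.75 or more P815 was counted with Balb/C, at 0.25 or less with C57BI6. P815 is a single array, so these are descriptions with no test. It was in the scan batch that held no Balb/C line, and the part of the batch in its position was not tested. Of the 861 loci of at least 2 probes, it was with Balb/C at 381 (44.3%, exact 95% binomial interval 40.9 to 47.6%), with C57BI6 at 277 (32.2%, 29.1 to 35.4%) and between at 203 (23.6%, 20.8 to 26.6%). The intervals cover counting error over loci only, and neighbouring loci are not independent. Among lower loci the shares were 45.0% with Balb/C and 31.4% with C57BI6. Among the 72 higher loci they were 36.1 and 40.3%, and the intervals of the 2 classes overlapped. After the running median had been removed from each array, P815 was with Balb/C at 440 (51.1%) and with C57BI6 at 270 (31.4%) of the same 861 loci. Under normexp, only 5.56% of 144 loci had P815 with Balb/C and 31.2% with C57BI6.

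Part of the named loci were chosen by the side of P815, so how many fall on each side is not a result. At single loci, P815 lay at or near the level of 1 strain or the other, or between them. With Balb/C, it stood at -1.53 at the 12-probe locus of chromosome 4 (from 121473470), at -0.86 at the 3-probe locus of chromosome 8 (from 32635591), at -0.38 at the 64-probe locus of chromosome 4 and at 0.46 at the 61-probe locus of chromosome 17. On chromosome 8 from 66123450 to 66250778, it stood at -3.64, inside the range of the Balb/C lines (-3.99 to -3.19). With C57BI6, it stood at -0.23 at the chromosome 9 locus where the Balb/C lines were below -5. It stood at 0.18 on chromosome 19 from 9220038 to 9519458, where the Balb/C lines were at -3.31, -3.44 and -3.72 and the families ran from -0.20 through 0.37 to 0.84. On chromosome 4 from 25377962 to 25491773, it stood at 3.46 beside a family median of 3.34 and Balb/C values of -0.42, -0.38 and -0.59. The reference was dim at 2 of the 4 probes there, and without them the strain difference was -1.79 in place of -3.71. Chromosome 15 from 77304404 to 77424854 and chromosome 16 from 36196602 to 36251467 were of the same kind, with P815 at 0.41 and 0.60 and Balb/C means of -2.62 and -2.65. Between the groups, it stood at -0.79 on chromosome 14 from 52016351 to 52061340, where the Balb/C mean was -3.09 and the C57BI6 mean 0.43, and at -2.24 at the 10-probe locus of chromosome 12.

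The side that P815 took ran in blocks along the chromosomes. Of 276 neighbouring pairs of loci within 1 Mb where P815 took a side at both, it took the same side in 222 (80.4%). Of 226 neighbouring pairs further apart, it took the same side in 153 (67.7%). Over single loci, 57.9% of the 658 with a side were with Balb/C, which is a share of loci and not a rate of agreement between pairs. With the running median removed, 254 of 318 close pairs (79.9%) were alike, and the pairs further apart were not counted that way. Uninterrupted runs of at least 4 loci numbered 31 with Balb/C, holding 204 loci, and 19 with C57BI6, holding 98. The Balb/C runs include that on chromosome 4 from 88521563 to 90246622. There P815 stood at a mean of -5.41, far past the Balb/C mean of -0.80.

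The longest run by number of loci lay on chromosome 17 from 23646741 to 35741025, where P815 was with Balb/C at 18 loci in a row, 16 of them lower and 2 higher, with 129 called probes. The H2 complex is on this chromosome, and Balb/C and DBA/2 mice are known to carry the same H2 haplotype while C57BL/6 mice carry another. Whether these loci fall inside it was not determined, since no gene positions on mm8 were used. The run from 7173192 to 21958198 on the same chromosome held 10 loci, again with Balb/C. On chromosome 17 as a whole, P815 was with Balb/C at 49 of 59 loci (83.1%) and with C57BI6 at 5, and these were 45 and 6 with the running median removed. Chromosome 8 followed, with 39 of 57 loci (68.4%) with Balb/C and 17 in a row from 22491943 to 42436526. On chromosome 2, 14 loci in a row from 107977148 to 123304308 and 12 from 83906581 to 101795918 were with Balb/C.

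Runs with C57BI6 held fewer loci. That of 13 loci on chromosome 4 from 90728555 to 103247272 is the long stretch of lower Balb/C signal described above. Of the others, that with most loci had 7, with 15 called probes, on chromosome 1 from 68783401 to 126588476. That with most called probes had 32, in 5 loci on chromosome 19 from 9220038 to 16036291. On chromosome 18, P815 was with C57BI6 at 12 of 20 loci (60%) and with Balb/C at 4, and at 13 and 6 with the running median removed. On chromosomes 4, 11, 13 and 15 the balance turned with that step. P815 was with C57BI6 at 25 and with Balb/C at 13 of 59 loci of chromosome 13, but at 18 and 29 with the running median removed. On chromosome 4 the counts were 37 with C57BI6 and 29 with Balb/C of 84 loci, and 32 and 37 with it removed. On chromosome 11 they were 26 and 24 of 67 loci, and 27 and 28 with it removed. On chromosome 15 they were 4 and 6 of 14 loci, and 8 and 6 with it removed. On chromosomes 1, 5, 6, 7 and 14 the counts were equal, and with it removed more loci were with Balb/C.

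The level of the reference DNA differed from locus to locus. After local centring, the Balb/C mean was nearer to 0 at 481 of the 861 loci (55.9%) and the C57BI6 mean at 380. Where the reference was nearer Balb/C, P815 was with Balb/C at 47.2% and with C57BI6 at 26.2% of loci. Where it was nearer C57BI6, the shares were 40.5 and 39.7%. The reference was therefore not at the level of 1 of the 2 strains throughout. The 64-probe locus of chromosome 4 and the chromosome 9 locus show both cases, with the Balb/C mean at -0.22 and the C57BI6 mean at 0.12, respectively, after local centring. At the 64-probe locus, however, 51 probes were dim in the reference and 39 were not well above background in Balb/C. Most of the window of the running median also lies inside that locus, so the level of the reference there is imprecise.

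Each line was also read at loci called without it, with the running median removed, which asks how far a line shares the level of its label in data that did not choose the loci. The C57BI6 families were with their own label at 85.0% (LL2) to 98.5% (B16) of such loci: 97.4% for MC38, 92.7% for Hepa1-6, 97.2% for PAN02, 97.6% for TRAMPC, 91.6% for EL4 and 91.1% for ID8. Hepa1-6 and PAN02 were each read with both left out of the fit. Of the Balb/C lines, CT26 was with Balb/C at 88.3%, 4T1 at 91.8% and Renca at 91.7%. Most other loci lay between the groups. Without the running median the shares were lower, from 72.0% in 4T1 to 89.5% in B16. P815, at 51.1% with Balb/C, stood apart from all 11.

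**Figure D4:**
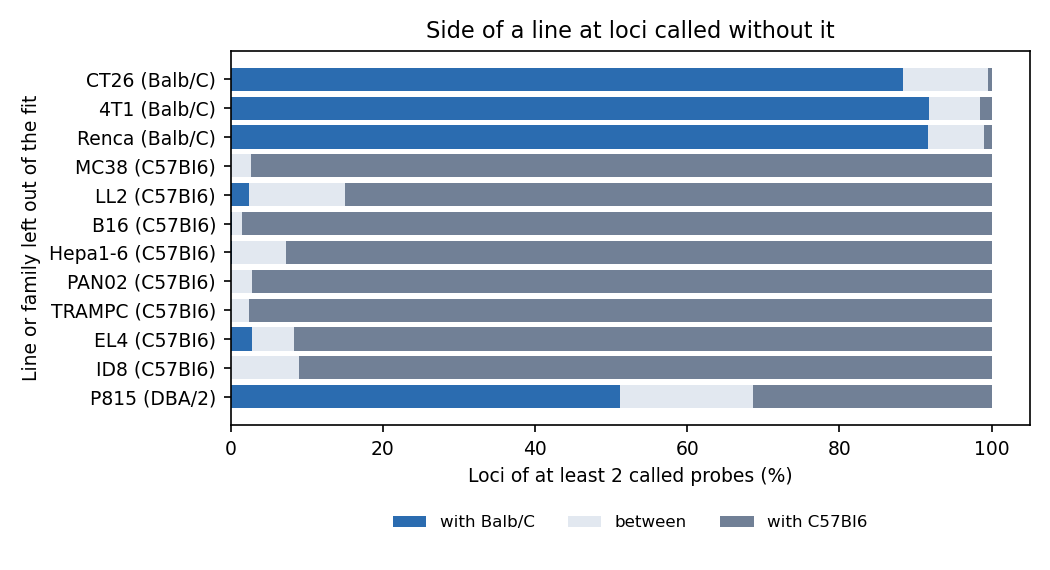
Percent of loci of at least 2 called probes at which a line or family is with Balb/C (blue), between (light grey) or with C57BI6 (dark grey), at loci called without it and with the running median removed. All 11 keep to their label at 85.0% or more, while P815 has 51.1% with Balb/C and 31.4% with C57BI6; LL2 and EL4 show the largest shares with the other strain.

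Loci on the side of the other strain were rare and, with the running median removed, gathered in 2 families. None was found in MC38, PAN02, TRAMPC and ID8, and 1 each in B16 and Hepa1-6. CT26 had 3, Renca 6 and 4T1 10. LL2 had 22, of which 11 lay on chromosome 4, and EL4 had 24, of which 10 lay on chromosome 2 and 4 on chromosome 3. Being on that side does not mean being at its level. On chromosome 4 from 135313605 to 135331285, LL2 stood at -1.87, past a Balb/C mean of -0.41. At the B16 locus the strain means themselves lay close, at -0.22 in Balb/C and -0.094 in C57BI6. On chromosome 4, the LL2 loci were interspersed: between 89088126 and 140985564, LL2 was with Balb/C at 11 of 53 loci, with C57BI6 at 30 and between at 12. At some of them the strains lay close or overlapped with the running median removed, so a side means little there. From 91382081 to 91475599, the Balb/C mean was -0.040 and the C57BI6 mean 0.10, with LL2 at -0.18. From 132855312 to 133174030, the means were -0.046 and 1.28, with LL2 at -0.083. Without the running median step, loci with the other strain numbered 32 in EL4, 29 in 4T1, 21 in LL2, 10 each in MC38 and Renca and 6 in CT26. The remaining families had 1 to 3.

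In EL4, the chromosome 2 loci were contiguous in part. From 83901154 to 97172826, 15 loci were called without EL4, and EL4 was with Balb/C at 10 of them and with C57BI6 at 5. The first 6 in order were all with Balb/C and the next 4 all with C57BI6. At the first, with 10 probes, EL4 stood at -1.10, the Balb/C lines at -1.08, -1.07 and -0.94, and the other families from 0.26 to 0.46. At the third, with 6 probes, EL4 stood at -2.06, the Balb/C lines at -1.78, -1.69 and -1.95 and the other families from 0.55 to 0.83. At the seventh, with 7 probes, EL4 stood at 0.67, beside other families from 0.62 to 0.78 and Balb/C lines at -1.75, -1.93 and -2.28. On chromosome 3, all 4 loci from 81194110 to 88971595 had EL4 with Balb/C. The same line accounts for overlap in the fit of all lines: at 5 of the 8 loci of at least 3 probes whose groups overlapped, EL4 was the family that lay inside or beyond the Balb/C range, 4 of them on chromosome 2 and 1 on chromosome 17. P815 was near the Balb/C level along the same chromosome 2 stretch, at -1.07 at the first locus, -1.85 at the third and -1.99 at the seventh.

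**Figure D5:**
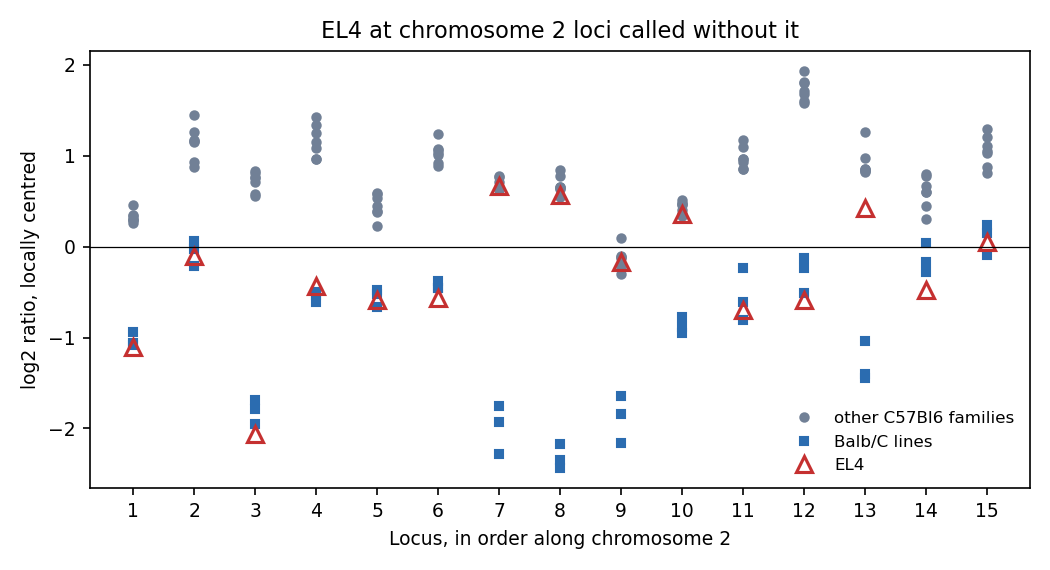
Log2 ratio with the running median removed, at 15 loci of chromosome 2 in order of position, called without EL4: EL4 (red triangles), the 3 Balb/C lines (blue squares) and the 7 other C57BI6 families (grey circles). EL4 lies with the Balb/C lines at loci 1 to 6, with the other families at loci 7 to 10, and mostly with Balb/C at loci 11 to 15.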

How the data were processed

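Genomic DNA of 16 samples of tumour lines, B16F0 and B16F10 from 2 sources each, was measured on 2-colour arrays, 1 array per sample. Spot intensity values were made by the authors with Agilent Feature Extraction (version 10.7.3.1, probe positions on build mm8, per the file headers). They were already background-subtracted and scaled between dyes, per the file headers. Log10 ratios and a log2 value table, both deposited, hold the same ratios, and the deposited flags mark outlier and dim spots. Here log2 of the processed line signal over the processed reference signal was taken without flagged and control spots, repeat spots were averaged, and each array was centred on its autosomal median, without loess.

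Strain was fitted with limma 3.58.1 in R 4.3.3 (lmFit, eBayes) on 3 Balb/C lines and 8 C57BI6 families, and p-values were adjusted over all 220255 autosomal probes measured in each of the families. They measure the spread between lines and families, each 1 array except B16 (4) and TRAMPC (2). The calls and the locus step were tested on simulated data. Dim probes were given a bound, "at least", from the lowest signal well above background on the array. This bound holds for the deposited background correction only, and under normexp the differences at the named lower loci were smaller. The number of arrays limits the precision.

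Loci named were, among those of at least 3 called probes, the 5 largest differences each way, the 5 with most probes, the 5 longest, and the largest by side of P815. Comparison, lists and rules were chosen with earlier results of these data known. Gene symbols in the rule could not be used, since no annotation on mm8 was used here. Alternatives were normexp background correction (on median signals, offset 50), mode and local centring, the scan batch, families merged or left out, thresholds and joining distance. Reading each line at loci called without it, and leaving out Hepa1-6 and PAN02 together, were chosen after seeing the data.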

Additional observations from a re-analysis of the deposited data

Results flagged for a closer look

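At 5 of the 24 named loci, 1 C57BI6 family lay apart from the other 7 by Dixon's criterion; chance flags about 1 in 20 groups. B16 stood at 0.0987 on chromosome 17 from 30176354 to 30650272, where the others ran from -0.41 to -0.25. B16 stood at 1.12 on chromosome 6 from 129924488 to 130242877, where the others ran from 0.24 to 0.63. ID8 stood at 0.806 on chromosome 19 from 23940195 to 24645077, with the others from 0.19 to 0.48. MC38 stood at 1.06 on chromosome 16 from 36196602 to 36251467, with the others from 0.28 to 0.63. TRAMPC stood at 1.07 on chromosome 14 from 52016351 to 52061340, with the others from 0.21 to 0.46. In each case the outlying family was the highest, on the far side from Balb/C except on chromosome 17.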

How the results depend on the processing

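The direction of the strain difference at the named loci reversed under none of the alternatives run on them. The balance of P815 turned under normexp (5.556% with Balb/C, 31.25% with C57BI6) and, with local centring, on chromosomes 4, 11, 13 and 15. Called probes and loci of at least 2 numbered 5153 and 861. They were 1291 and 144 under normexp (1265 of the calls shared), 9069 and 1672 with local centring (4847 shared), 3131 and 471 with scan batch blocked, and 3180 and 473 within the batch of the Balb/C lines. The share of loci with P815 on the Balb/C side, 44.3%, was 48.56% with local centring, 49.26% with the block, 51.37% within the batch, 48.19% at an adjusted p under 0.01 and 59.23% with sides split at the midpoint. Leaving out 1 line or family gave 3760 to 5343 probes, 600 to 894 loci and 42.81 to 48.5% for P815, the last without Renca. The cause of these shifts was not tested. Of the 24 named loci, 7 had under 50% of their probes called under normexp, 1 with local centring, 1 with the block, 2 within the batch and 2 without probes dim in the reference, which left no value for 1 more. Under the other alternatives run on them, all 24 kept at least 50% of their probes called, though the values moved. Thresholds, joining distance and the midpoint were not run on single loci. No paired analysis was possible because the labels give no replicate numbers shared between strains. Groups of 3 and 8 and dim signal at the largest differences limit the precision of folds.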
